A study of Mus musculus with 39 samples.

Results

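Histone genes were followed through oocytes, donor cells and 2-cell embryos made by fertilization or by nuclear transfer. A gene was included when its RefSeq mouse symbol, current or former, was that of a core histone, a linker histone or one of their variants (symbols such as Hist1h, Hist2h, Hist3h, Hist4h, H2af, H3f, H1f and H1foo, and the names that replaced them). The array carried 63 probes for 48 of these genes among 41174 probes in all, and 62 of the 63 were tested among 39517 probes. The probe left out was the second of 3 probes for Macroh2a1, which did not reach the minimum signal. The tested probes fell into linker histones (13 probes, 10 genes), core H2A (12 probes, 10 genes), core H2B (8 probes, 7 genes), core H3 (3 probes, 3 genes), core H4 (7 probes, 5 genes) and variants of H2A, H2B and H3 (19 probes, 13 genes). Chromosome 13, which carries the large histone cluster, held 26 of the 48 genes. Where a gene had several probes, they are numbered in the order of their probe names.

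Samples came from (B6xDBA/2)F1 mice, and each of the 39 arrays was hybridized with amplified RNA from 10 pooled oocytes or embryos, or from 500 cumulus cells. OC (n = 7) were unfertilized oocytes and Cumulus (n = 4) were cumulus cells, the somatic cells that surround the oocyte, both collected 15 h after hCG. IVF (n = 6) were 2-cell embryos from in vitro fertilization, cultured for 24 h. TSA(-) (n = 8) were 2-cell embryos made by somatic cell nuclear transfer (SCNT) from cumulus cell nuclei without further treatment, and TSA(+) (n = 6) were SCNT embryos kept in 5 nM trichostatin A, an inhibitor of histone deacetylases, for 8 h from activation. Spi-C NT were SCNT embryos injected at the pronuclear stage with mRNA of the transcription factor Spi-C at 1.0 mg/ml (n = 4) or 0.1 mg/ml (n = 4), without trichostatin A. All SCNT groups therefore share enucleated recipient oocytes and cumulus donor nuclei, and 1 array averages over the embryos pooled for it.

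Core histones form the protein spool of the nucleosome, and linker histones bind the DNA between nucleosomes. Most core and linker genes are replication-dependent: they lie in clusters, are transcribed mainly in S phase, and their mRNAs end in a stem-loop bound by SLBP in place of a poly(A) tail. Replacement variants such as H3.3, H2A.Z and H2A.X are made throughout the cell cycle or have functions of their own, and the oocyte stores histone mRNA and proteins, among them the oocyte linker histone H1f8, for use after fertilization. Which primers started the amplification is not given in the sources used here, so the efficiency with which mRNAs without a poly(A) tail were amplified is unknown.

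Promoters of the genes on which the results turned are shown because several core genes moved together between groups. RefSeq promoters of 250 bases before to 50 bases after the start (GRCm38.p6) were found for 42 of the 48 genes, as 43 windows. CCAAT, the core of the binding sequence of NF-Y, was present on either strand in 36 of the 43 (83.7%) against 37.4% of all 32851 promoters of the same length, and in every core H2A (10 of 10), H2B (6 of 6) and H3 (2 of 2) window. It was present in 2 of 4 core H4, 7 of 10 linker and 9 of 11 variant windows. TATAAA was present in 19 (44.2%) against 13.6% of all promoters. The octamer ATTTGCAT, the sequence bound by POU factors such as OCT1, was present in 11 (25.6%) against 1.74%, with 5 of 10 core H2A and 3 of 6 core H2B windows and 0 of 16 core H3, core H4 and linker windows. In the windows printed here, no match overlapped another motif. The divergent neighbours H2ac1 and H2bc1 shared 220 bases of their windows, and H2ac23 and H2bc23 shared 267, so these are not independent sequences. In the windows that follow, capitals mark the TATAAA box, the CCAAT box and the octamer on either strand.
H1f8 (chr6:115944681-115944980, forward strand): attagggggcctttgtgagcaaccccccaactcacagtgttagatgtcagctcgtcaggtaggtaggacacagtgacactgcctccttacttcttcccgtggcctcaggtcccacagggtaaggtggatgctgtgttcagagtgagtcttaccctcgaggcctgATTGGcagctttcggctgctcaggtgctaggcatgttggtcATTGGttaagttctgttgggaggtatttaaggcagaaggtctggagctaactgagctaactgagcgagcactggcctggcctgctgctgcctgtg
H1f1 (chr13:23763418-23763717, forward strand): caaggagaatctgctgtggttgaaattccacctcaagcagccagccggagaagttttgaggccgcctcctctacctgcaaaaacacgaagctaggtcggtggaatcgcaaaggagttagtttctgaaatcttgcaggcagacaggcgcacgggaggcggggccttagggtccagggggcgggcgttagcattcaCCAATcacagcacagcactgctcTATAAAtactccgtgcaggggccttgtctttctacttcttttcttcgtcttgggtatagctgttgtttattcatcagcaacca
H2ac20 (chr3:96220831-96221130, reverse strand): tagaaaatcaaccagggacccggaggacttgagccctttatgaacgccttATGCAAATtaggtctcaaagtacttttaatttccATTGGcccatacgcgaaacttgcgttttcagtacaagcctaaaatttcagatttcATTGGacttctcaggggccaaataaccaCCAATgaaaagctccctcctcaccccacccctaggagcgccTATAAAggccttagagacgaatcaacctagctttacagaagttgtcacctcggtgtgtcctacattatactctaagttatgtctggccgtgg
H2ac23 (chr13:21810117-21810416, forward strand): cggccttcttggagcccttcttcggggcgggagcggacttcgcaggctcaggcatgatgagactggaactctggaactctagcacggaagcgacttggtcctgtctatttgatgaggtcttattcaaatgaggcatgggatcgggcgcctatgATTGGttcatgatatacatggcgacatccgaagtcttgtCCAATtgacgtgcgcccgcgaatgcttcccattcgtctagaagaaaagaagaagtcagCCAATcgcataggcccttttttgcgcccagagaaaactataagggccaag
H2ac1 (chr13:23934187-23934486, forward strand): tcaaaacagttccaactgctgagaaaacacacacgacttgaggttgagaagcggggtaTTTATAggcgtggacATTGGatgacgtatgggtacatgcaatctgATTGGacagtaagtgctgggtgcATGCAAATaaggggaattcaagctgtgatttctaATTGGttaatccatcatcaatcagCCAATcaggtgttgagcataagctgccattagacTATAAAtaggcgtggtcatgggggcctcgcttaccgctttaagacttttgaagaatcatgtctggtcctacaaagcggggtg
H4c4 (chr13:23581318-23581617, forward strand): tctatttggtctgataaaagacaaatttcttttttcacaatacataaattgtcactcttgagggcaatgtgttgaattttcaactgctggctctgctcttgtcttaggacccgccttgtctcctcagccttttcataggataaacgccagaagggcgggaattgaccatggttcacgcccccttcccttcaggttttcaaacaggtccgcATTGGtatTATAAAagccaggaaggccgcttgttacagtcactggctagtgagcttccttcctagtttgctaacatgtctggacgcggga

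Expression is given as the log2 intensity minus the log2 of the 75th percentile of the same array, so 0 is the level of a probe at that percentile, 1 unit is 2-fold, and values of different probes are not compared with each other. That percentile lay between 271.3 and 512.3 intensity units in OC, 792 and 1101 in Cumulus, and 997.2 and 1587.4 in IVF, TSA(-) and TSA(+), and between 2115.4 and 2666.5 in Spi-C NT. Of the 63 histone probes, 42 were well above background on every OC array, 51 on every IVF array, 46 on every TSA(-) and every TSA(+) array, 45 on every Spi-C NT array and 52 on every Cumulus array. The oocyte markers summed to between 11.54 and 12.34 in OC and to at most 0.98 in Cumulus, where 5 of 10 marker probes were on no array above background. The cumulus cell markers summed to between 8.20 and 8.37 in Cumulus and to at most 2.00 elsewhere. The leukocyte markers were higher in Cumulus (4.89 to 6.83) than in OC (-4.68 to -2.33), IVF (0.09 to 3.10) and the SCNT embryos (at most 1.19), and their part in the results on Cumulus was not tested. Groups differed in a probe when the limma adjusted p was under 0.01 over all 39517 probes, and replicate arrays are separate pools.

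Between the oocyte and the fertilized 2-cell embryo, histone transcripts went both ways. In IVF against OC, linker H1f8, H3.3, core H3, H2A.X and some H2B transcripts were lower, and several core H2A and H4 transcripts were higher. None of the probes called for H3.3, core H3 and H4 kept its call under all of the other scalings described below. Of the 62 probes, 16 were higher and 24 lower. Among all probes tested, 66% differed (23.3% higher, 42.7% lower), so the share of histone probes that differed, 40 of 62, lay near the background. The median log2 difference was -0.73 over the histone probes and -0.88 over all probes. Of the lower probes, 3 (H2ac4, H2ac8 and probe 1 of H4f16) were not well above background on any array of either group, which leaves 21 lower probes with a measured level. Groups did not overlap in 31 of the 40 (77.5%), near the 76.7% among all probes that differed.

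H1f8 (formerly H1foo), the oocyte linker histone, ran from 10.00 to 10.94 in OC with a median of 10.55. In IVF it ran from 4.81 to 5.25 with a median of 5.03. The groups were far apart, with a log2 difference of -5.44 (SE 0.23, 43.5-fold lower in IVF, adjusted p = 1.96e-18), and with quantile normalization it was -3.29. H1f2, a somatic replication-dependent H1, had a lowest, median and highest level of 1.15, 1.68 and 2.01 in OC and of -0.91, -0.30 and 0.02 in IVF, a difference of -1.99 (SE 0.23). H1f7, a linker histone of spermatids, was also lower, by a log2 difference of -1.74. Probe 1 of H1f3, another somatic H1, spread from -7.27 to 0.35 in OC and was above background on 6 of 7 OC arrays and 1 of 6 IVF arrays. Its difference of -6.44 had an SE of 0.87, and probe 2 of the same gene did not differ (0.32). H1f1, a replication-dependent H1, rose from between -2.70 and -2.06 in OC to between -1.61 and -0.92 in IVF, by 1.05 (SE 0.31), a call lost with median centring (0.37), quantile normalization (0.48) and normexp (0.54). Probe 2 of H1f0, the replacement linker histone of resting cells, rose by 2.68 (SE 0.21), from between -1.12 and -0.01 to between 2.17 and 2.40. Its other probes did not differ (-0.59 and -0.47), so the direction for H1f0 rested on 1 of 3 probes. H1f4, H1f5, H1f6 and H1f10 did not pass the test, with differences of -0.88, 0.52, -1.35 and 0.13.

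**Figure D1:**
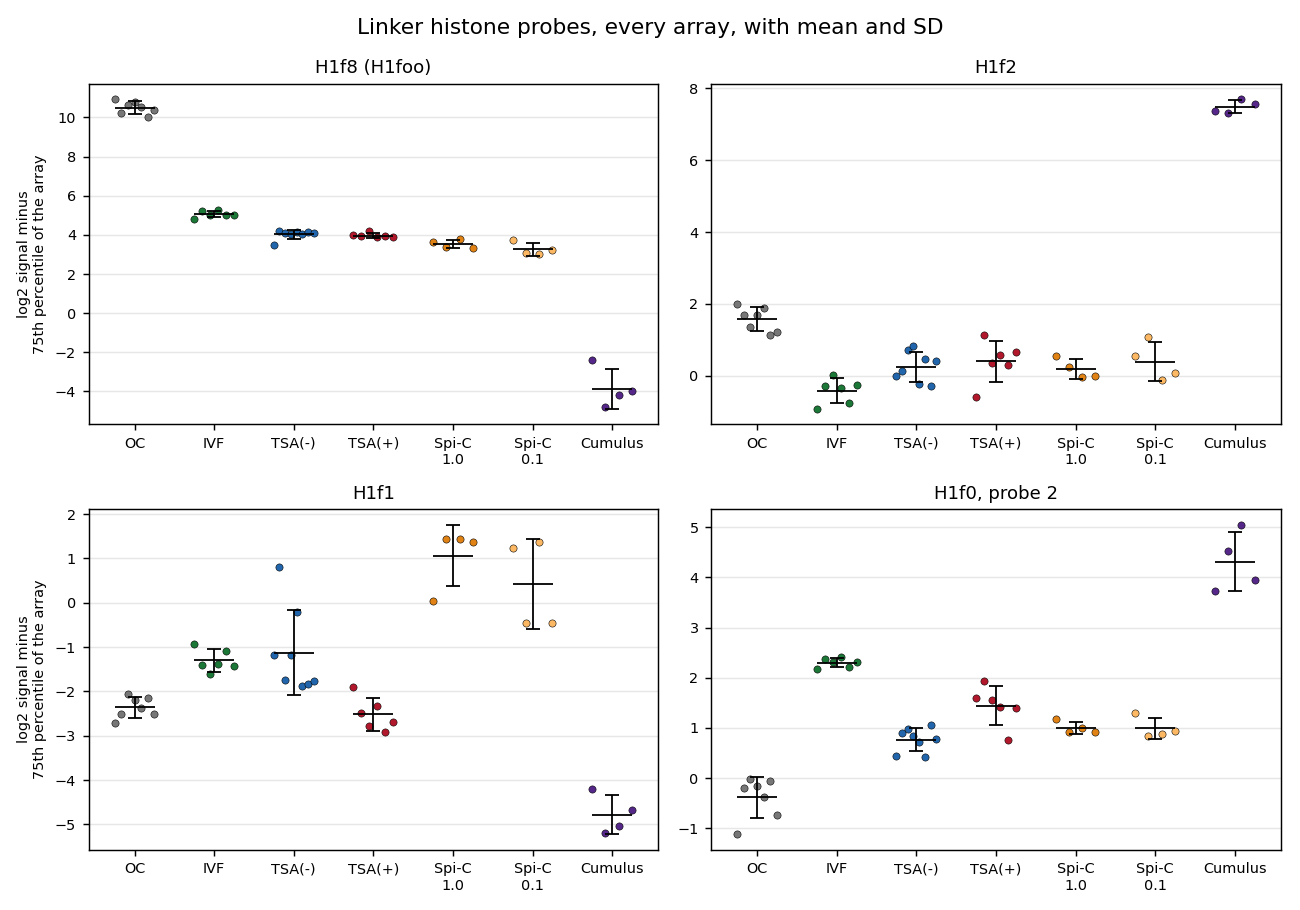
Linker histone probes on each array, as log2 intensity relative to the 75th percentile of the array, by group, with the mean and SD. H1f8 lies between 10.00 and 10.94 in OC, between 4.81 and 5.25 in IVF and between -4.82 and -2.41 in Cumulus.

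Core H2A had 4 probes higher in IVF and 2 lower, with a median difference of 0.98. H2ac20, a core H2A gene of the cluster on chromosome 3, ran from 0.03 to 0.95 in OC (median 0.61), and its IVF arrays lay between 1.97 and 2.73 (median 2.25). The groups did not overlap, and the difference was 1.74 (SE 0.20, 3.35-fold, adjusted p = 7.25e-09). H2aw rose by 1.67 on probe 1 and probe 1 of H2ac10 by 1.13. Probe 2 of each gene had the opposite sign and did not pass the test (-1.83 for H2aw and -0.80 for H2ac10). H2ac18 rose by 1.72, but it was above background on 4 of 7 OC arrays and its difference turned to -0.06 with the normexp background correction. H4 had 4 probes higher and 1 lower (median 0.78), the lower one being below background throughout. Probe 2 of H4f16 led with 1.26, followed by H4c14 with 0.82, H4c6 with 0.78 and probe 1 of H4c4 with 0.75. With median centring these became 0.58, 0.14, 0.10 and 0.07, and none of the H4 probes that were higher passed the test. Both core H3 genes with a bright probe fell. H3c14 fell from between 7.39 and 8.04 (median 7.84) to between 5.00 and 5.42 (median 5.27), by 2.50 on the log2 scale (SE 0.16). With quantile normalization H3c14 differed by -0.21 and did not pass the test. H3c4 was lower by 2.04 (SE 0.17), a difference that became 0.03 with quantile normalization. Core H2B went both ways, with 2 probes higher and 3 lower.

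H2bc4 and H2bu2, replication-dependent H2B genes of different clusters, were the H2B probes that fell furthest. H2bc4 ran from 1.90 to 2.77 in OC (median 2.32) and from -3.99 to -1.92 in IVF (median -2.90), a difference of -5.22 (SE 0.34, 37.3-fold). H2bu2 ran from 1.65 to 4.80 in OC (median 4.16) and from -1.77 to 0.19 in IVF (median -1.19), a difference of -4.81 (SE 0.62). H2bc21 moved the other way. It was above background on 1 of 7 OC arrays, with a highest level of -3.50, and ran from -1.18 to -0.53 in IVF (median -0.93), a difference of 4.74 (SE 0.37) that was 1.78 under normexp. H2bc23 was on no OC array above background and was at least 1.01-fold higher in IVF, with a difference of -0.89 under normexp. H2bc6 passed the test as lower in IVF, but it was above background on no IVF array and on only 1 of 7 OC arrays, so no fold is given.

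**Figure D2:**
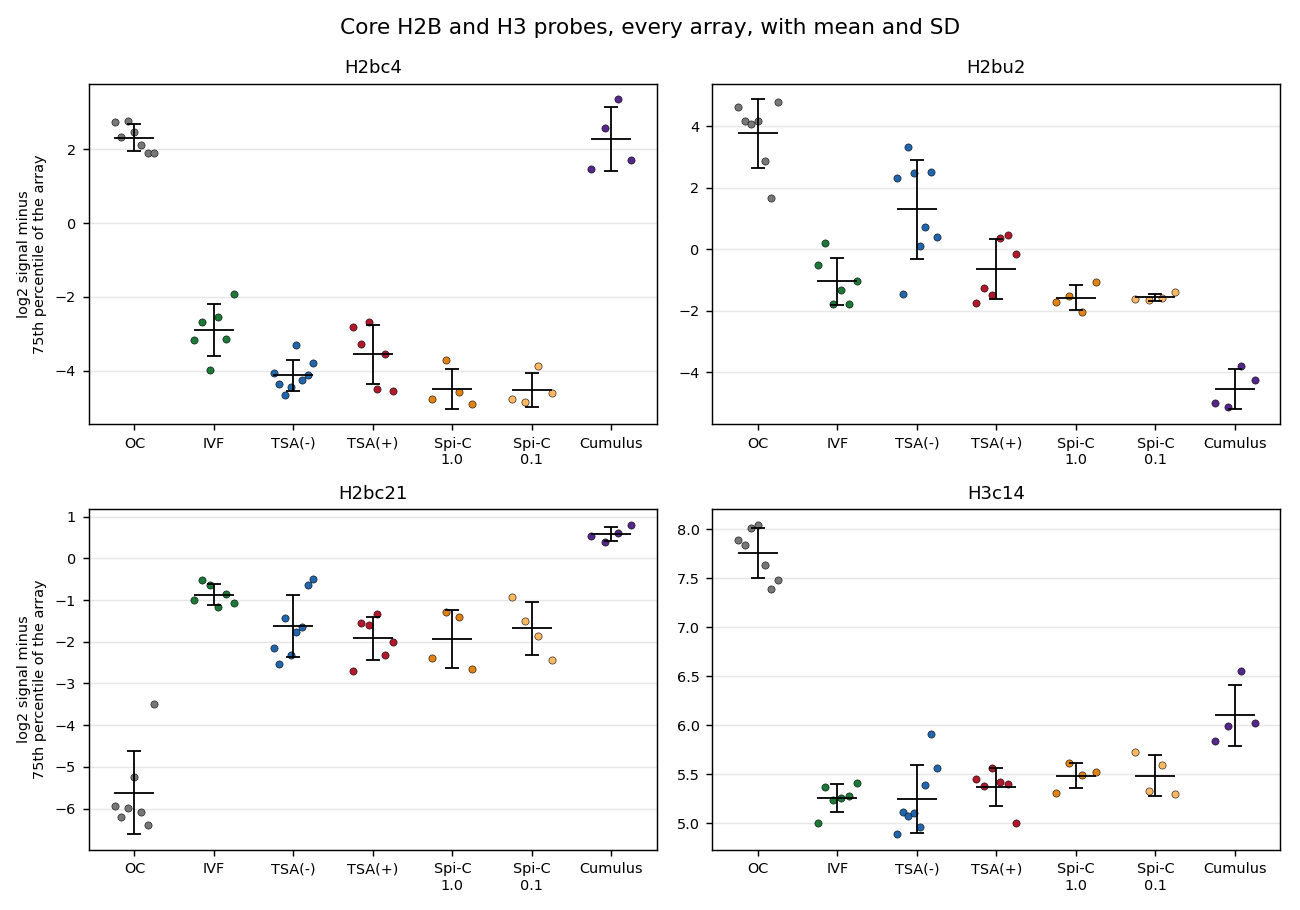
Core H2B and H3 probes on each array, as log2 intensity relative to the 75th percentile of the array, by group, with the mean and SD. H2bc4 lies between 1.90 and 2.77 in OC and between -3.99 and -1.92 in IVF, whereas H2bc21 lies at or below -3.50 in OC and between -1.18 and -0.53 in IVF.

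Variants mostly fell, with 12 probes lower, 4 higher and a median difference of -1.58. H2ax, the variant phosphorylated at DNA breaks, ran from 3.94 to 4.54 in OC (median 4.12) and from -0.03 to 0.85 in IVF (median 0.63). The difference was -3.61 (SE 0.20, 12.2-fold, adjusted p = 5.59e-16). All 6 probes of the H3.3 genes were lower, and 0 of the 6 passed the test with quantile normalization. Probe 1 of H3f3a fell from a median of 8.48 (7.68 to 9.09) to 5.94 (5.74 to 6.17), by 2.52 (SE 0.18). Probe 1 of H3f3b fell from a median of 10.08 (9.49 to 10.43) to 8.36 (8.24 to 8.53), by 1.73 (SE 0.14). With quantile normalization, which moved the median of all probes from -0.88 to -0.29, probes 1, 2 and 3 became -0.18, 0.25 and 0.25 for H3f3a and 0.17, -0.01 and -0.27 for H3f3b. Probe 3 of Macroh2a1, a variant with a large non-histone domain, fell by 3.86 and probe 1 by 2.19. The male germ cell variants, H2ab1 and H2al2a, were lower by log2 differences of -2.56 and -1.78. H2A.Z went the other way on both genes, H2az1 by 1.13 (SE 0.19) and H2az2 by 0.79 (SE 0.16), with H2az1 between 4.37 and 5.52 in OC and between 5.69 and 6.27 in IVF. With median centring the differences were 0.45 for H2az1 and 0.11 for H2az2, and neither passed the test. H2ac1, the H2A gene known as TH2A, was higher by 1.05, and its neighbour H2bc1 (TH2B) did not differ (-0.50). The H2ac1 probe carried nearly the same signal as probe 1 of the core gene H2ac10 (correlation 0.9987 over the 39 arrays). The gene from which its signal came, here and in later comparisons, is therefore uncertain. The same holds for H2ac20, whose correlation was 0.988 with probe 1 of H2ac10, 0.9844 with H2ac1 and 0.9887 with probe 2 of H2aj. The counts take these probes singly, although they are not separate observations. The probes of H2aj disagreed, probe 1 with -1.58 and probe 2 with 1.58.

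**Figure D3:**
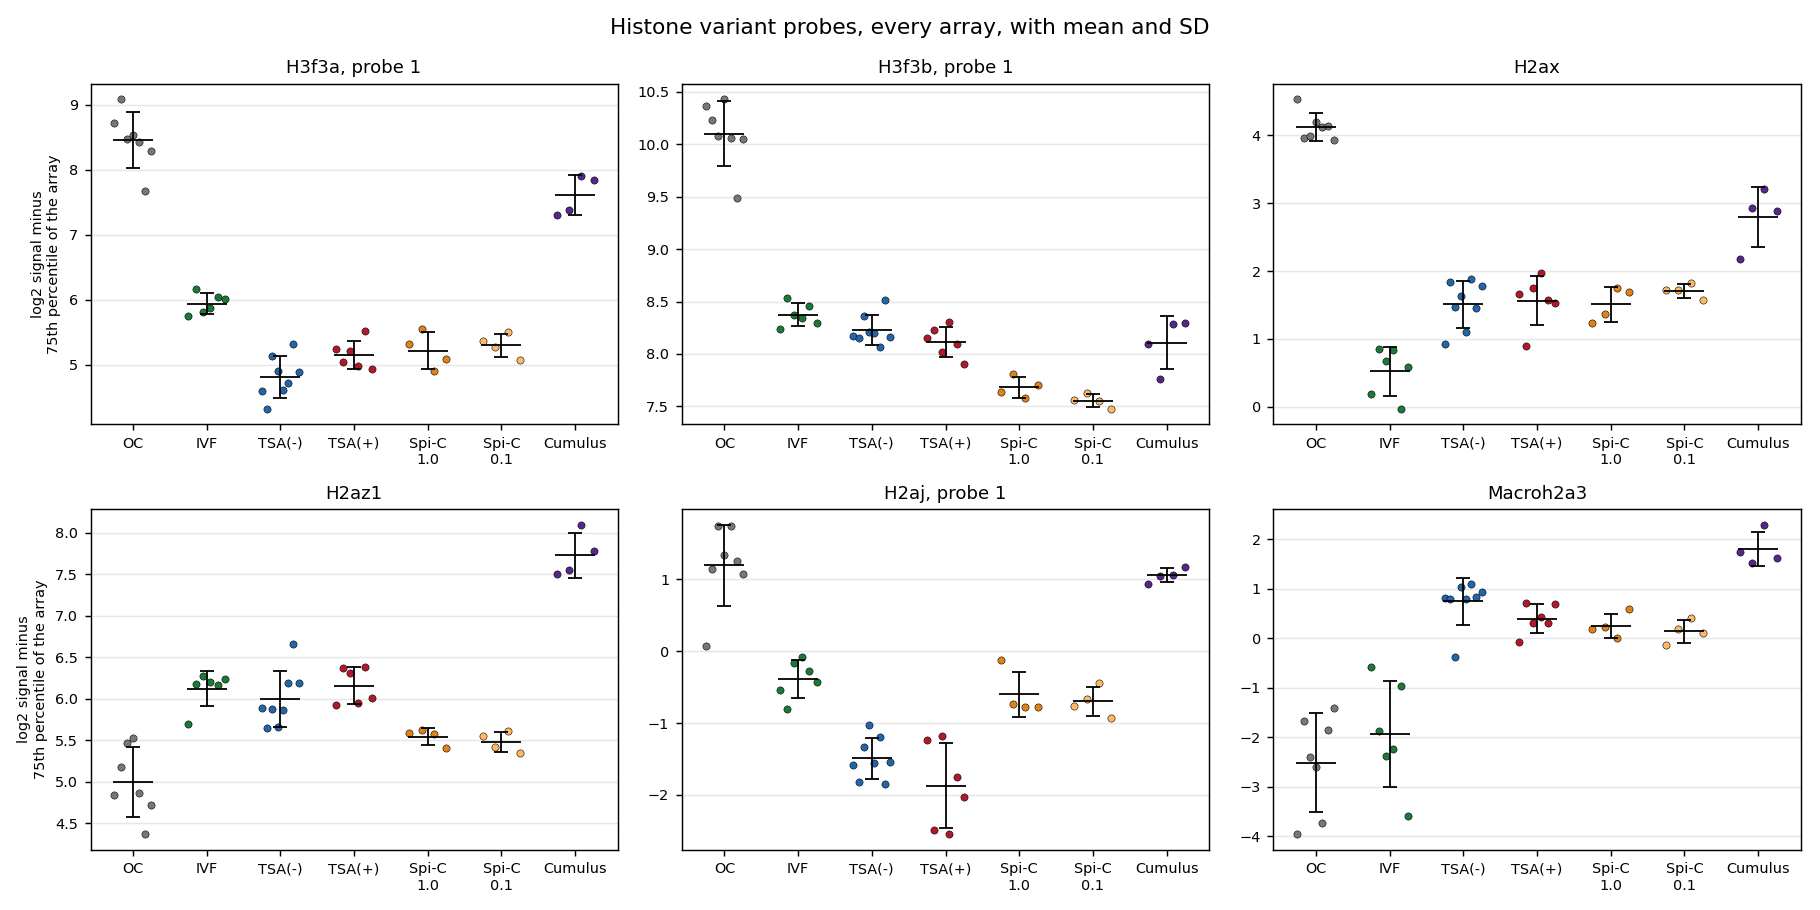
Variant histone probes on each array, as log2 intensity relative to the 75th percentile of the array, by group, with the mean and SD. H2ax lies between 3.94 and 4.54 in OC and between -0.03 and 0.85 in IVF, and Macroh2a3 lies at or below -0.58 in OC and IVF and between -0.38 and 1.08 in TSA(-).

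The count of 16 higher and 24 lower probes became 11 and 41 with normexp, 13 and 19 with quantile normalization and 6 and 32 with centring on the array median, under which the median of all probes was -1.28, -0.29 and -1.55. Under all 4 other scalings, 17 of the 40 probes differed in the same direction: H2ac20, H2aw probe 1, H2aj probe 2, H1f0 probe 2 and H2bc21 were higher, and H1f8, H1f2, H1f3 probe 1, H1f7, H2ab1, H2al2a, H2ax, H2bc4, H2bu2, H2aj probe 1 and Macroh2a1 probes 1 and 3 were lower. On each of the 2 slides that held both groups, 40 of 40 probes had the sign of the whole comparison. The probes were called with these same arrays, so agreement in sign was favoured in advance and is no separate support.

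The oocyte and the nuclear donor cell are the sources of the cloned embryo. Between OC and Cumulus, 20 of 62 probes were higher in OC and 21 lower, and the groups did not overlap in 35 of these 41 (85.4%, against 87.3% of all probes that differed), while 67.8% of all probes differed (44.4% higher, 23.4% lower). The median difference was 0.09 over histone probes and 1.15 over all probes. Core H2A stood on the side of Cumulus, with 0 probes higher in OC, 9 lower and a median of -2.76, H4 had 3 probes higher and 0 lower, and linker histones had 7 higher and 4 lower. The Cumulus arrays shared no slide with any other group and were read by another scanner and software version, so these and the cell type cannot be told apart. In a pool of cumulus cells, fewer cells of a type and less RNA per cell cannot be told apart either.

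H1f8 was -2.41, -4.82, -4.20 and -3.97 on the Cumulus arrays, against at least 10.00 in OC, a log2 difference of 14.36 (SE 0.26). H1f2 was the linker histone highest in Cumulus relative to OC, at 7.38, 7.31, 7.70 and 7.57 against at most 2.01 in OC, a difference of -5.92 (SE 0.26, 60.5-fold). The order of the groups for H1f2 was thus Cumulus, then OC, then the 2-cell embryos. Probe 1 of H1f3 (2.59, 1.62, 2.63 and 2.75) was also higher in Cumulus, by 4.27 (SE 0.99) in size, and probe 2 was at least 2.16-fold higher, although its difference turned to 0.42 under normexp. H1f1 (-4.20, -5.21, -5.03 and -4.69 in Cumulus) was higher in OC by 2.43, H1f7 by 2.10 and H1f10 by 1.47. The call for H1f10 was lost under 7 of 22 other settings. H1f6, the testis H1, was on no Cumulus array above background and was at least 3.02-fold higher in OC. The probes of H1f0 disagreed, with 2.38 and 1.93 on probes 1 and 3 and -4.70 on probe 2.

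Among core genes, H2ac20 was 4.20, 4.38, 4.88 and 4.25 in Cumulus, all above the OC arrays, with a difference of -3.85 (SE 0.23). H2ac18 was lower in OC with a difference of -4.09, probe 1 of H2aw with -3.51 and probe 1 of H2ac10 with -3.17. Probe 2 of H2ac10 did not pass the test (0.25). H2bc21 was 0.54, 0.40, 0.62 and 0.80 in Cumulus, a difference of -6.21 (SE 0.41), and H2bc23 was at least 4.29-fold higher there. H2bu2 had the opposite pattern, with -5.00, -5.14, -3.79 and -4.24 in Cumulus and a difference of 8.31 (SE 0.70). H2bc4 did not differ between the donor cell and the oocyte (0.04), whereas both were above every embryo array. H3c14 and H3c4 were higher in OC by 1.66 and 0.97, and these became -0.47 and -1.03 with quantile normalization. H4c1 was higher in OC by 1.40, and probes 2 of H4c4 and H4f16 by 1.86 and 0.99.

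Of the variants, H2az1 was higher in Cumulus (7.50, 7.55, 8.09 and 7.78), with a difference of -2.73 (SE 0.21). Macroh2a3 was 1.74, 1.52, 2.29 and 1.62 in Cumulus against at most -1.41 in OC, a difference of -4.31 (SE 0.45). Macroh2a3 is annotated by RefSeq as a transcribed pseudogene. H2ac1 and probe 2 of H2aj were also higher in Cumulus, with differences of -3.06 and -3.83. H2ax was higher in OC by 1.33, all 3 probes of H3f3b were higher by 1.61 to 2.38, and probe 1 of H3f3a by 0.85. With quantile normalization H2ax was 0.16, probes 1, 2 and 3 of H3f3b were 0.15, -0.06 and 0.36, and none of these 4 passed the test, while probe 1 of H3f3a became -1.16. H2ab1 was on no Cumulus array above background and was at least 5.90-fold higher in OC. Macroh2a1 had probes of opposite sign (-2.13 and 3.16), and H2az2, Macroh2a2 and H2al2a did not pass the test (-0.40, -0.56 and 0.41). The split of 20 higher and 21 lower became 28 and 17 under normexp, 11 and 28 with quantile normalization and 17 and 22 with median centring, and 27 of the 41 probes differed in the same direction under all 4 other scalings.

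Untreated SCNT embryos were next set against fertilized embryos of the same stage. In TSA(-), 3 of 62 histone probes were higher than in IVF and 10 lower, against 18.8% of all probes (8.49% higher, 10.3% lower), and the median difference was -0.49 over histone probes and -0.05 over all. The probes that were higher were Macroh2a3, H2bu2 and H2ax, and those lower were H1f8, H1f0 probe 2, H2ac20, H2aw probe 1, H2bc4, both probes of H2aj and all 3 probes of H3f3a. Groups did not overlap in 7 of the 13 (53.8%), against 65.1% of all probes that differed. The 2-cell embryo markers summed to between 7.70 and 8.13 in IVF and between 5.62 and 7.08 in TSA(-), and the oocyte markers to between 9.75 and 9.91 and between 9.51 and 9.78, and their part in these differences was not tested.

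Macroh2a3 ran from -3.59 to -0.58 in IVF (median -2.05) and from -0.38 to 1.08 in TSA(-) (median 0.83). The groups did not overlap, with a difference of 2.68 (SE 0.39, 6.40-fold, adjusted p = 4.46e-06). The level in every TSA(-) array lay between the IVF and the Cumulus arrays. H2ax ran from 0.93 to 1.88 in TSA(-) (median 1.55), above every IVF array, by 0.99 (SE 0.19). H2bu2 spread from -1.47 to 3.32 in TSA(-) (median 1.53), overlapping IVF, with a difference of 2.34 (SE 0.60) that became 0.81 with slide as a fixed block. H1f8 ran from 3.47 to 4.20 in TSA(-) (median 4.10), below every IVF array, with a difference of -1.03 (SE 0.23, 2.04-fold). Probe 2 of H1f0 ran from 0.42 to 1.05 (median 0.81), also below every IVF array, with a difference of -1.53 (SE 0.20). Probe 1 of H3f3a ran from 4.32 to 5.32 (median 4.80), without overlap, with a difference of -1.13 (SE 0.18), and probes 2 and 3 gave -0.73 and -0.69. H3f3b, which codes for the same protein, did not pass the test on any of its 3 probes (-0.14, 0.29 and 0.05).

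H2ac20 overlapped between TSA(-) (1.11 to 2.48, median 1.49) and IVF and differed by -0.70 (SE 0.20), and probe 1 of H2aw (-1.59 to -0.99, median -1.21) did not overlap and differed by -0.75 (SE 0.16). H2bc4 (-4.67 to -3.32, median -4.18) differed by -1.22 (SE 0.33) with overlapping groups, a call lost under 9 of 28 other settings. Probe 1 of H2aj (-1.85 to -1.03, median -1.55) was below every IVF array, with -1.10, and probe 2 gave -0.81. Of the core H3 and H4 probes 0 of 10 passed the test, with differences from -0.98 to -0.01 for H3 and from -0.83 to 0.48 for H4. H2az1 and H2az2 gave -0.13 and -0.21. With slide as a fixed block, which uses differences within slides, 1 probe was higher and 5 lower, 5 of them among the 13, while the share of all probes that differed went from 18.8% to 10.3%. On the 3 slides that held both groups, 13, 13 and 12 of the 13 probes had the sign of the whole comparison. Those arrays also took part in the calls, so this is no separate support.

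TSA-treated SCNT embryos were set against the same IVF arrays, so both clone comparisons share their IVF arrays and only their own values are given. In TSA(+), 3 probes were higher than in IVF and 18 lower, against 18.9% of all probes (7.83% higher, 11.1% lower), with a median of -0.87 over histone probes and -0.23 over all. Groups did not overlap in 18 of the 21 (85.7%), against 77.7% of all probes that differed. The higher probes were Macroh2a3, H2ax and H1f2. The lower ones were 4 linker, 3 core H2A, 2 core H2B and 4 H4 probes and 5 variant probes, and 0 of 3 core H3 probes. The 2-cell embryo markers summed to between 6.22 and 7.23 in TSA(+), below IVF. The oocyte markers summed to between 9.36 and 9.57, also below IVF (9.75 to 9.91). The part of both marker sets in these differences was not tested.

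Macroh2a3 ran from -0.07 to 0.72 in TSA(+) (median 0.37), a difference of 2.33 (SE 0.42), and H2ax from 0.90 to 1.97 (median 1.62), a difference of 1.04 (SE 0.21). H1f8 ran from 3.87 to 4.20 (median 3.93), a difference of -1.10 (SE 0.24). These levels lay beside those of TSA(-). H1f2 overlapped with IVF (-0.59 to 1.14, median 0.47) and differed by 0.82 with an adjusted p of 0.00977, a call lost under 16 of 26 other settings. H1f1 ran from -2.93 to -1.90 (median -2.59), below every IVF array, with a difference of -1.22 (SE 0.32). Its call was lost under 6 of 26 other settings. H1f10 differed by -1.68 and probe 2 of H1f0 by -0.86, calls lost under 2 and 3 of 26 other settings. Over these settings H1f10 ran from -1.91 to -0.56.

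H2ac20 ran from 0.72 to 1.46 in TSA(+) (median 1.15), without overlap, with a difference of -1.21 (SE 0.21). Probe 1 of H2ac10 gave -1.11 and probe 1 of H2aw -1.05. Of H4, probe 2 of H4f16 (-4.31 to -2.65, median -3.59) was below every IVF array, with a difference of -1.47 (SE 0.31), and probe 1 of H4c4 (-0.88 to 0.24, median -0.66) differed by -0.99 (SE 0.24). H4c1 and H4c6 gave -0.88 each. Of H2B, probe 2 of H2bc12 (-2.97 to -2.32, median -2.53) differed by -1.20 and H2bc14 by -1.16. H2bc1 (-3.62 to -2.69, median -3.49) gave -1.22, H2ac1 (0.57 to 1.39, median 1.05) gave -1.12, and the probes of H2aj -1.49 and -1.10. The calls for H2bc1 and probe 2 of H2bc12 were lost under 11 and 6 of 26 other settings. Probe 1 of H3f3a ran from 4.94 to 5.52 (median 5.12), below every IVF array, with a difference of -0.79 (SE 0.19). The 21 probes became 12 with median centring (3 higher, 9 lower), 13 with slide as a fixed block and 12 without replicate 5 of TSA(+). Under all 4 other scalings, 10 of the 21 probes differed in the same direction. The others were H1f0 probe 2, H1f1, H1f2, H1f10, H2bc1, H2bc12 probe 2, H2bc14, H4c1, H4c4 probe 1, H4c6 and H3f3a probe 1. On each of the 3 slides that held both groups, 21 of 21 had the sign of the whole comparison. The arrays of these slides also took part in the calls, so this is no separate support.

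**Figure D4:**
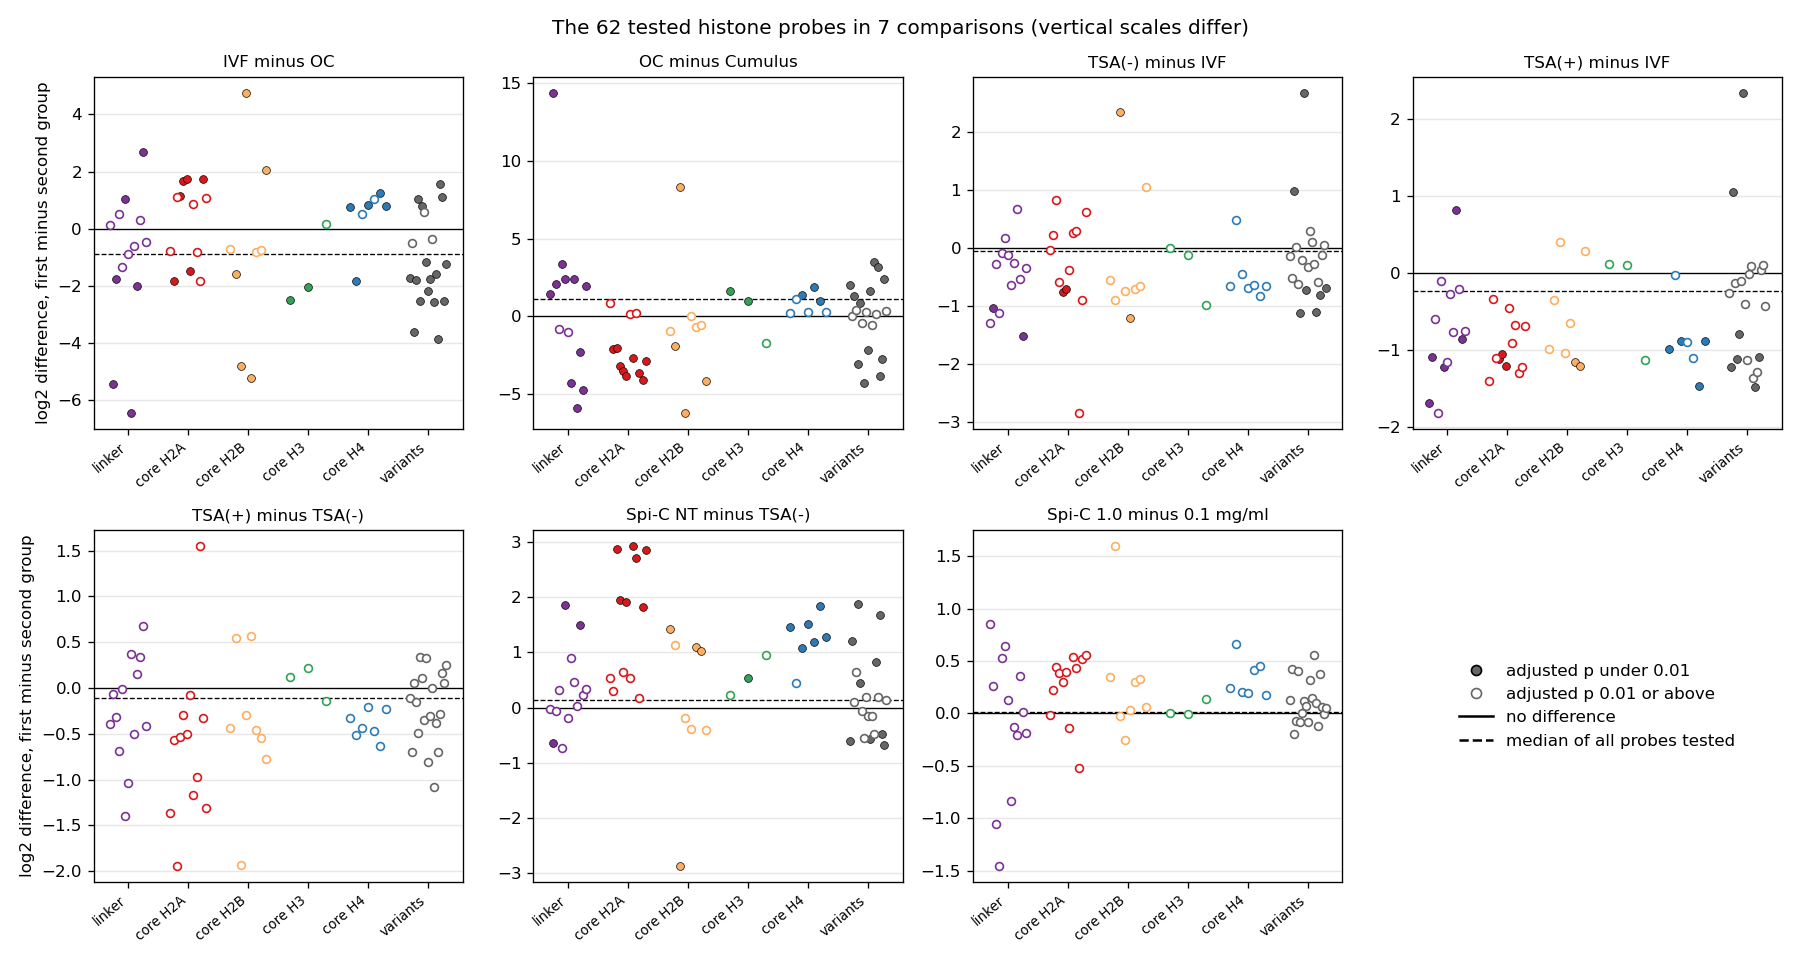
Log2 differences of the 62 histone probes (first minus second group, vertical scales differ) in 7 comparisons, by family. Filled points passed the test (limma, adjusted p under 0.01), open points did not, and the dashed line is the median of all 39517 probes. In Spi-C NT against TSA(-), the 7 filled core H2A points and 6 filled H4 points lie above 1, and in TSA(+) against TSA(-) every point is open.

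The direct comparison of TSA(+) with TSA(-) asks whether the deacetylase inhibitor altered histone transcripts in clones. By limma, 0 of 62 probes passed the adjusted threshold, against 0.137% of all probes (0.043% higher, 0.0936% lower). Of the 62, 15 had an unadjusted p under 0.05 (24.2%, against 16.3% of all probes). With normexp 2 of the 62 passed (3.23%, against 0.964% of all probes), and with Tukey's test 2 (3.23%, against 2.02%). The median difference was -0.33 over histone probes and -0.11 over all. H1f1 came nearest, at -1.88 to 0.80 in TSA(-) (median -1.47) and -2.93 to -1.90 in TSA(+) (median -2.59). The groups came close to each other without overlapping, and the difference was -1.39 (SE 0.31, adjusted p = 0.0215). H2ac23, a core H2A gene, ran from -0.42 to 2.58 in TSA(-) (median 0.49) and from -2.16 to -0.06 in TSA(+) (median -1.09), overlapping, with a difference of -1.94 (SE 0.46, adjusted p = 0.0278). H2bu2 differed by -1.94 (adjusted p = 0.0955) and probe 2 of H1f0 by 0.67 (adjusted p = 0.0811). H1f8, H2ax and H2az1 gave -0.06, 0.05 and 0.16. An adjusted p above the threshold does not show that the groups were alike.

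Spi-C NT embryos, 8 arrays of both concentrations together, were set against the TSA(-) clones that had received neither mRNA nor inhibitor. Here 24 of 62 probes were higher in Spi-C NT and 6 lower, against 20.9% of all probes (11.7% higher, 9.24% lower), and the median difference was 0.45 over histone probes and 0.13 over all. Of the 24 higher probes, 19 were of replication-dependent genes, which made up 36 of the 62 tested probes. By family, the higher probes were 7 of 12 core H2A (median 1.87), 6 of 7 H4 (median 1.28), 3 of 8 H2B (median 0.42) and 1 of 3 H3 probes. Linker histones had 2 higher and 1 lower, and variants 5 higher and 4 lower. Groups did not overlap in 15 of the 30 (50%), against 44% of all probes that differed. Spi-C NT arrays lay on slides of their own and were scanned on another day with another scanner and software version, so slide, scanner and treatment cannot be told apart. The split of 24 higher and 6 lower became 24 and 17 under normexp, and 25 of the 30 probes differed in the same direction under all 4 other scalings.

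H2ac23 was 2.07, 4.37, 4.63 and 4.55 at 1.0 mg/ml and 4.64, 2.54, 4.21 and 2.47 at 0.1 mg/ml, against a highest TSA(-) array of 2.58. Thus 3 Spi-C NT arrays lay within the range of TSA(-) and the other 5 above it. The difference was 2.88 (SE 0.51, 7.35-fold, adjusted p = 7.80e-05). H2ac15, a core H2A gene of the chromosome 13 cluster, was -1.61, 0.67, 0.92 and 0.61 at 1.0 mg/ml and 0.88, -1.16, 0.04 and -1.34 at 0.1 mg/ml, against -4.11 to -1.54 in TSA(-) (median -3.32), a difference of 2.93 (SE 0.41). H2ac20 was 2.45, 4.08, 4.31 and 4.13 and then 4.42, 2.60, 3.82 and 2.57, against 1.11 to 2.48 in TSA(-), a difference of 1.92 (SE 0.27). In each of these genes the same 3 arrays were the lowest. H2ac13 was higher by 2.87, probes 2 and 1 of H2ac10 by 2.72 and 1.95, and H2ac18 by 1.83, the only one of the 7 H2A probes in which the groups did not overlap. H2ac4, H2ac6, H2ac8 and both probes of H2aw did not pass the test, with differences between 0.17 and 0.65.

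Of the 6 H4 probes that were higher, 5 had no overlap between the groups, and some of them carried nearly the same signal, as described after the values. Probe 2 of H4f16 was -1.23, -0.53, -0.53 and -0.96 at 1.0 mg/ml and -0.86, -1.71, -0.95 and -1.56 at 0.1 mg/ml, above every TSA(-) array (-3.49 to -2.29, median -2.94), by 1.84 (SE 0.23, 3.57-fold). Probe 1 of H4c4 was 1.20, 1.61, 1.87 and 1.29 and then 1.68, 0.79, 1.45 and 1.09, against -0.56 to 0.65 (median -0.11), by 1.46 (SE 0.18). H4c1 was -0.40, -0.02, 0.17 and -0.30 and then -0.06, -0.76, -0.27 and -0.30, against -1.73 to -0.89 (median -1.34), by 1.07 (SE 0.20). H4c14, H4c6 and probe 2 of H4c4 were higher by 1.51, 1.28 and 1.18. Of H2B, probes 1 and 2 of H2bc12 were higher by 1.43 and 1.02 and H2bc14 by 1.09. H2bu2 was lower, at -1.71, -1.53, -2.03 and -1.06 and then -1.62, -1.65, -1.60 and -1.39, against -1.47 to 3.32, a difference of -2.88 (SE 0.51). Core H3c4 (4.87, 5.05, 5.08 and 5.06 and then 5.29, 4.80, 5.20 and 4.79) was higher by 0.54 (SE 0.13) within an overlap with TSA(-) (4.07 to 5.15, median 4.37).

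Among linker histones, H1f1 was 0.03, 1.44, 1.43 and 1.37 and then 1.24, -0.44, 1.37 and -0.47, against -1.88 to 0.80, a difference of 1.87 (SE 0.36). Probe 2 of H1f3 was higher by 1.49 with an adjusted p of 0.00999, a call lost under 23 of 30 other settings. H1f8 was 3.62, 3.39, 3.77 and 3.32 and then 3.73, 3.07, 3.04 and 3.23, lower by 0.63 in size (SE 0.12). The oocyte markers, to which H1f8 does not belong, summed to between 8.99 and 9.30 in Spi-C NT, and their part in the lower H1f8 was not tested. Of the variants, H2ac1 was higher by 1.88, H2bc1 by 1.21 and the probes of H2aj by 0.84 and 1.68. Probe 1 of H3f3b was 7.64, 7.81, 7.57 and 7.71 and then 7.56, 7.63, 7.55 and 7.48, below every TSA(-) array (8.06 to 8.51), a difference of -0.61 (SE 0.08). Its probes 2 and 3 gave -0.56 and -0.69, whereas probe 1 of H3f3a was higher by 0.45, a call lost under 17 of 30 other settings. H2az1 (5.58, 5.62, 5.57 and 5.40 and then 5.55, 5.42, 5.61 and 5.35) was below every TSA(-) array, with a difference of -0.48 (SE 0.13). With quantile normalization the differences were -0.04 for probe 1 of H3f3b and -0.27 for H2az1, and neither passed the test. H2ax, H2az2, Macroh2a3 and the tested probes of Macroh2a1 did not pass the test (0.10, -0.06, -0.55, -0.15 and 0.19).

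**Figure D5:**
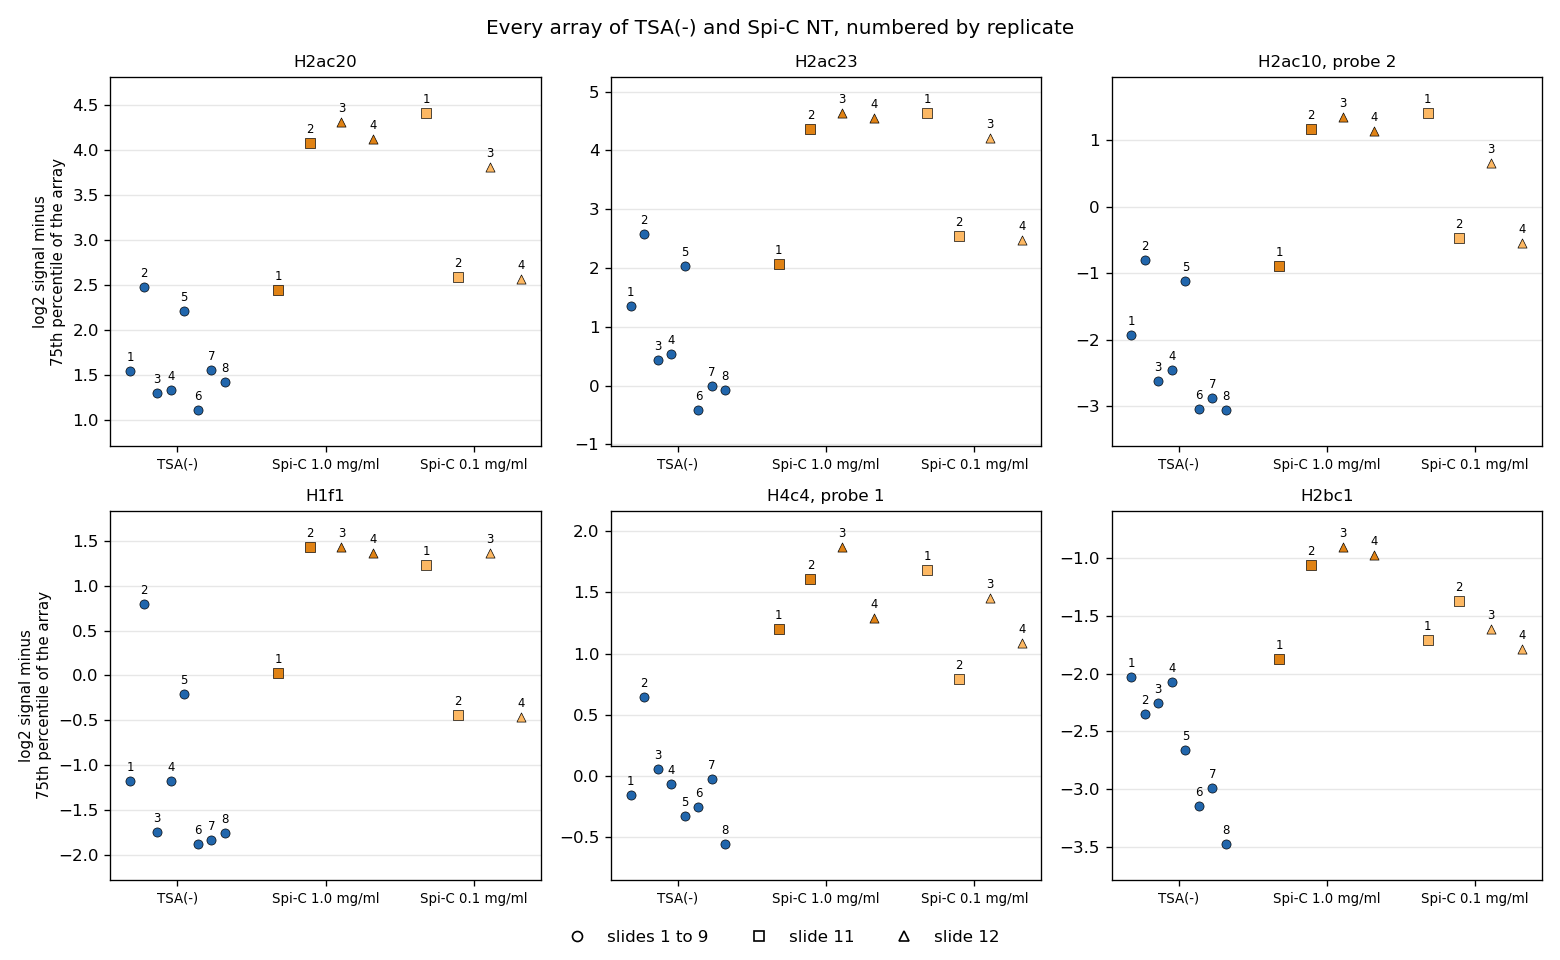
H2ac20, H2ac23, H2ac10, H1f1, H4c4 and H2bc1 on each TSA(-) and Spi-C NT array, numbered by replicate, as log2 intensity relative to the 75th percentile of the array, with marker shapes for slides 1 to 9, 11 and 12. For H2ac23, replicate 1 at 1.0 mg/ml and replicates 2 and 4 at 0.1 mg/ml lie at 2.07, 2.54 and 2.47, and the other 5 Spi-C NT arrays between 4.21 and 4.64.

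The arrays within Spi-C NT were ordered alike across these probes, an order chosen after the values were seen and given without a test. The arrays named below, in both groups, were picked as the most frequent set among the core H2A probes. The counts for core H2A, and the totals that include them, therefore partly reflect that choice. Among histone probes measured on all arrays of both groups, replicate 1 at 1.0 mg/ml and replicates 2 and 4 at 0.1 mg/ml were the 3 lowest of 8 in 8 of 8 core H2A, 5 of 6 H4, 2 of 2 H3 and 1 of 6 H2B probes, in 20 of 45 in all (44.4%). The same 3 arrays were lowest in 5.68% of 23579 probes of the whole array. In TSA(-), replicates 2 and 5 were the highest of 8 in 7 of 8 core H2A probes and in 12 of 45 histone probes (26.7%), against 5.54% of all probes. The 3 Spi-C NT arrays were of both concentrations. They also had the 3 lowest shares of probes well above background, 69.4 to 71.7%, against 71.8 to 74.9% on the other 5, and the part of this in the order was not tested. Several of these probes also carried nearly the same signal over the 39 arrays. The correlation was 0.9987 between probe 1 of H2ac10 and H2ac1, 0.9936 between probe 2 of H2bc12 and H2bc14, 0.9928 between H4c14 and H4c6 and 0.9887 between H2ac20 and probe 2 of H2aj. Of 692 pairs of probes of different genes, 6 reached 0.98, among them H2ac20 with probe 1 of H2ac10 (0.988) and with H2ac1 (0.9844). Histone genes of a family are nearly identical in sequence, so the gene from which such a signal came is uncertain, and these probes are not separate observations.

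The concentrations of Spi-C mRNA were compared directly. By limma, 0 of 62 passed between 1.0 and 0.1 mg/ml, against 0.00506% of all probes, 3 had an unadjusted p under 0.05 (4.84%, against 4.11% of all probes), and the median difference was 0.14 over histone probes and 0.02 over all. H2ac23, H2ac20, probe 1 of H4c4, H1f1 and H1f8 differed by 0.44, 0.39, 0.24, 0.64 and 0.26. Against TSA(-), 1.0 mg/ml alone gave 21 probes higher and 4 lower (40.3%, against 14.2% of all probes), and 0.1 mg/ml alone gave 18 and 5 (37.1%, against 13.7%), a division of the arrays chosen after the joint values were seen.

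Genes that process histone mRNA or act at the histone locus were followed beside the histone genes, with 36 probes for 20 genes. In IVF against OC, 12 probes were higher and 18 lower, while 23.3% of all probes were higher and 42.7% lower. Slbp, which codes for the stem-loop binding protein, was lower by 3.27 in size, Casp8ap2, Lsm11 and Zfp473 had differences of -1.83, -0.95 and -0.88, and Npat, the activator of histone transcription, was higher by 2.75 and 2.88 on its probes and Lsm10 by 2.43. The probes of Eri1, an exonuclease that trims histone mRNA, gave -3.59, -1.96 and, without passing, -0.45. Among the others, Ncbp1 was higher by 6.16 and 6.80, Upf1 gave -4.31, and the probes of Cpsf3 gave -3.11, -3.17 and -2.99. The probes of Gon4l disagreed, with 3.79, -1.99 and, without passing, -1.14. In OC against Cumulus, 18 probes were higher, Slbp and Casp8ap2 by 6.13 each and Zfp473 by 3.91, and 10 lower, Lsm10 among them with -1.94. In TSA(-) against IVF, 6 were higher and 5 lower. The higher ones were the Hinfp probes at 1.67 and 2.22, Cpsf3 at 1.71 to 1.94 and 1 Eri1 probe at 0.84. The lower ones were 1 Gon4l probe at -1.28, Upf1 at -0.93, Sympk at -0.93, Lsm10 at -0.61 and Mif4gd at -0.57. In TSA(+) against IVF, 5 were higher, of Cpsf3 (1.82 to 2.06) and Hinfp (1.60 and 1.71), and 1 lower, of Gon4l (-1.46). In Spi-C NT against TSA(-), 4 were higher and 7 lower, with 1 of 2 Npat probes at -1.16 and Lsm11 at -0.50. The probes of Gon4l gave 1.77, 1.34 and, without passing, 0.24. The other higher probes were of Mif4gd (0.59) and Upf1 (0.52). The other lower ones were of Srrt (-1.37), Tut4 (-1.20 and -1.03), Ncbp1 (-0.95) and Cstf2 (-0.61). Further probes of Tut4 (-0.1 and 0.42), Ncbp1 (-0.37) and Cstf2 (0.26) did not pass. The shares for all probes are those given above, and between TSA(+) and TSA(-), and between the concentrations, 0 of the 36 probes passed limma's test.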

How the data were processed

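Gene expression was measured on 39 single-colour (Cy3) Agilent whole mouse genome arrays in 7 groups. The authors deposited the scanner output, whose processed intensity is background-subtracted by Feature Extraction and not normalized between arrays. Feature Extraction 9.5.3.1 is named in the submitters' processing notes, and per the file headers the Cumulus and Spi-C NT arrays were read with a later version and another scanner. The authors also deposited a table of log2 values, found to be the same intensities scaled to each array's 75th percentile and centred on each probe's median, which served as an alternative.

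Here, log2 processed intensity minus that of the 75th percentile of each array was used, without outlier spots and with the spots of a probe averaged. The test, by limma 3.58.1 (R 4.3.3, statmod 1.5.0), took every probe whose intensity reached 10 on some IVF or SCNT array, with Benjamini-Hochberg adjusted p under 0.01 over 39517 probes. One fit held all groups but Spi-C NT, another held IVF and all SCNT groups with the Spi-C mRNA concentrations joined, and a last one held them apart. A gene's symbol came from looking up the transcript accession of its probe in RefSeq (GRCm38.p6). The array number limits the precision, as does signal over background for dim probes. For a probe above background on no array of a group, a bound is given in place of a fold, except for H2bc6 in IVF against OC, where none is given. It sets the mean of the brighter group against, on each array of the dimmer group, the lowest signal among probes well above background or the probe's own if higher. The fit was tested on simulated data, in which all 39517 probes were used. Figures were drawn with matplotlib 3.10.9.

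All linker and variant genes were to be named in each comparison, and of each core family the probes with the largest called change in each direction. The members and lists were chosen with earlier results of these data known. Alternatives were normexp, quantile normalization, median centring, the authors' table, filters on dim probes, other thresholds and tests, slide, scan day or replicate number as a block, and leaving out each array. Where each probe lies in its transcript was not analysed here.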

Additional observations from a re-analysis of the deposited data

Results flagged for a closer look

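For the 29 probes whose arrays are described, 203 combinations of a probe and a group of 4 to 8 arrays were tested for an array that stood apart from the others of its group by Dixon's criterion. This found 24 arrays, and chance flags about 1 in 20 groups. The first Spi-C NT array at 1.0 mg/ml accounted for 9 of the 24. On it H1f1 was 0.031, H2ac20 2.45, H2ac10 (probe 2) -0.88, H2ac23 2.07, H2ac15 -1.61, H3c4 4.87, H2ac1 2.24 and H2bc1 -1.87, all below the other 3 arrays of the group, and H2aj (probe 1) was -0.13, above them. For H2ac23 the other 3 arrays ran from 4.37 to 4.63, and for H1f1 from 1.37 to 1.44.

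The other 15 were spread over 12 arrays. H1f8 was 3.47 on the first TSA(-) array, against 4.04 to 4.20 on the others. Probe 1 of H1f3 was -5.07 on the fifth IVF array, -5.36 on the fifth TSA(+) array and -4.86 on the second array at 0.1 mg/ml, each higher than the rest of its group and the array of that group on which the probe was above background, and it was 1.62 on the second Cumulus array, lower than the rest. H2bc21 was -3.50 on the seventh OC array, against at most -5.24 on the others. H3c4 was 4.30 on the first IVF array and 4.32 on the sixth TSA(+) array, H3c14 was 5.00 on that TSA(+) array, and H2az1 was 5.69 on the first IVF array, each lower than the rest. Probe 1 of H2aj was 0.078 on the first OC array, probe 1 of H3f3b 9.49 on the sixth OC array and probe 3 of Macroh2a1 0.28 on the seventh OC array, each lower than the rest. Probe 3 of Macroh2a1 was -2.66 on the first array at 0.1 mg/ml, against -3.86 to -3.75. Macroh2a3 was -0.38 on the third TSA(-) array, against 0.78 to 1.08.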

How the results depend on the processing

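Of the histone probes named by rule, those that differed gave 2660 values under alternatives. Of these, 2497 were again past the threshold in the same direction, 156 kept the direction but lost the call and 7 turned in sign. The threshold of 0.05 was applied to the same fit, so every probe that differed passed it again. The authors' table holds the same intensities at the same scaling, and leaving out 1 array keeps all others. Such settings favoured agreement in advance, so the 2497 values are not a measure of stability. Named probes that did not pass the test gave 282 values, of which 276 again did not pass (4 of them with the other sign) and 6 did. The 7 that turned were, with quantile normalization, H3f3a probes 2 and 3 (0.25 and 0.25) and H3f3b probe 1 (0.17) in IVF against OC, and H3f3a probe 1 (-1.16), H3f3b probe 2 (-0.056) and H3c14 (-0.47) in OC against Cumulus, and, with normexp, H1f3 probe 2 (0.42) in OC against Cumulus; the cause was not tested. Over all histone probes that differed, another scaling turned the sign of 6 in IVF against OC and 7 in OC against Cumulus, H2ac18, H2bc23, H3c4, H2ac8 and H2bc6 among them, and of 0 in the other comparisons. The count of differing probes in TSA(-) against IVF was 23 at an adjusted p under 0.05 and 6 with slide as a fixed block. In TSA(+) against IVF it was 12 with centring on the median, 13 with slide as a fixed block and 12 without the fifth TSA(+) array. Between TSA(+) and TSA(-) it was 2 with normexp, 2 with Tukey's test and 2 at an adjusted p under 0.05, all lower in TSA(+). Leaving out 1 array at a time gave 35 to 40 probes for IVF against OC, 37 to 41 for OC against Cumulus, 11 to 14 for TSA(-) and 12 to 22 for TSA(+) against IVF, 27 to 31 for Spi-C NT against TSA(-), and 0 for the other comparisons. Same-numbered arrays did not deviate together (correlations from -0.09 to 0.08), in a check that left out Spi-C NT against TSA(-). So few pairs cannot exclude that samples of the same number were collected together. With the replicate block the counts were 40, 40, 12, 20, 0, 26 and 0 in the order of the report, none moved by over 1.5 times. Over all probes, this block took those that differed in Spi-C NT against TSA(-) from 8272 to 5274. In simulated data, 100 of 39517 probes were changed by each size. The fit recovered 10 to 38% of changes of 1 log2 unit and 52 to 69% of changes of 2 units. In most comparisons of the data far more probes differed (66% in IVF against OC), which makes the adjusted threshold easier to reach. The recovered shares therefore do not give the sensitivity in those comparisons, and smaller changes can be missed.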
